A study of Mus musculus with 4 samples.

Results

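Growth factor ligands and receptor tyrosine kinases were measured in the mouse glioma-initiating line NSCL61 with and without a short hairpin RNA (shRNA) against Eva1. The genes comprised the fibroblast growth factors (FGF), platelet-derived growth factors (PDGF), vascular endothelial growth factors (VEGF) other than Vegfa, epidermal growth factor (EGF) family ligands, hepatocyte growth factor, Kit ligand, angiopoietins 1, 2 and 4, and Gas6, each with its receptors. The rule matched the gene symbols of the array annotation and used no threshold on measured values, although the set was proposed with earlier results of these data known. It gave 67 probes for 66 genes out of the 23473 probes of the array. All 66 symbols were current in RefSeq. Pdgfrl had 2 probes and every other gene had 1. Areg and Vegfd had no probe under these names and were not analysed here.

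The control group was 2 arrays labelled as NSCL61 alone, and the Eva1 shRNA group was 2 arrays labelled as NSCL61 with the hairpin. All 4 share the labels of C57BL6 strain, brain and developmental stage P0. NSCL61 is a line made from p53-deficient neural stem cells that overexpress an oncogenic HRas, so all groups carry an active Ras downstream of the receptors described here. The hairpin cells were grown out under hygromycin, and the title of the series, not the sample labels, names a control hairpin. Nothing in the labels says that a group holds 2 separate cultures, so each p-value below reflects variation between arrays that could be technical repeats.

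Each array was a 1-colour chip read as scaled intensity with a median of about 25 units. Between 6.95% and 11.98% of probes per array were blank. Mpzl2, the current name of Eva1, had intensities of 55.0 and 54.4 in control and 8.20 and 6.21 in Eva1 shRNA cells, lower on both arrays that carry the hairpin. Of 8 neural stem cell markers 7 had a probe, among them Nes with 532 and 537 in control and 435 and 430 in Eva1 shRNA cells, and Vim, Pax6, Msi1 and Sox9 were likewise above the median of the array on all 4 arrays. Fabp7 was below it on every array and Prom1 had a blank cell. Of the 6 neural stem cell markers tested, Fabp7 (log2 change -1.15) and Sox9 (-0.87, lost in 2 of the 4 omissions of an array, adjusted p up to 0.0723) fell, and the median change was -0.39. Gja1 (1.32) was the one of 3 astrocyte markers tested that rose, with a median change of 0.008 for the 3. Gfap, Aqp4 and Slc1a3 were at or below 4.71 units or blank on every array. Tubb3 (0.84, lost in 3 of the 4 omissions) was the one of 5 neuron markers tested that rose, with a median change of -0.11 for the 5. Of 8 endothelial markers, 4 (Cdh5, Cldn5, Pecam1 and Robo4) were at or below 4.71 units or blank on every array and 0 were above 25 units on all 4. Emcn was the one called, as a rise that was lost in 3 of the 4 omissions (adjusted p up to 0.169) and with 16 intensity units added, and their summed intensity was 13.3 and 24.5 in control and 28.5 and 26.4 in Eva1 shRNA cells.

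Receptor tyrosine kinases are single-pass membrane proteins that pair when a secreted or membrane-bound ligand binds, phosphorylate each other and recruit adaptors that start the Ras-MAPK and PI3-kinase cascades. In the brain, PDGF receptor alpha marks oligodendrocyte precursors, FGF and EGF ligands keep neural stem cells dividing in culture, and EGF, PDGF and MET receptors are often amplified or activated in glioma. The TAM receptors (Tyro3, Axl and Mertk) bind Gas6, protein S is another ligand of this family, and FLT1 and the angiopoietins are best known from blood vessels.

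Intensities below are as deposited. Log2 levels are after quantile normalisation, log2 changes subtract the control mean from the Eva1 shRNA mean, and a gene is said to have risen or fallen where limma's two-sided test, adjusted by the Benjamini-Hochberg method over 13765 genes, gave a value under 0.05. Only probes filled on all 4 arrays were tested. Probes that were blank on 1 to 3 arrays show where the signal runs out: 95% of their filled cells were at or below 4.71 units, called the dim range here.

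Of the 66 genes, 47 were tested. Among these 8 rose, 11 fell and 28 were not called. Over all 13765 genes 12.5% rose, 13.5% fell and 26.0% were called either way, beside 17.0% of the tested members that rose and 23.4% that fell. At least 2-fold, 6 members rose and 6 fell, where 5.17% of all genes rose and 6.41% fell to that extent. The groups did not overlap after normalisation for 33 of the 47 members (70.2%), against 66.7% of all genes. The median change was -0.15 over the tested members and -0.01 over all genes.

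The rises were Fgf7, Gas6, Pdgfd, Angpt1, Nrg2, Pdgfc, Met and Pdgfrb, 6 ligands and 2 receptors. The falls were Fgf5, Flt1, Pdgfra, Btc, Nrg1, Egf, Egfr, Fgf3, Tyro3, Pgf and Mertk, 6 ligands and 5 receptors. Of 30 tested ligand genes 18 were not called, and of 17 tested receptor genes 10 were not called. Genes were sorted into ligands and receptors by symbol. The ligands thus include intracellular FGF members such as Fgf13, and the receptors include Pdgfrl, which lacks a kinase domain. With 1 array left out 6 members rose and 6 fell for either control array omitted, 4 rose and 5 fell for Eva1 shRNA array 1 and 6 rose and 5 fell for Eva1 shRNA array 2, and 9 of the 19 calls (Fgf5, Fgf7, Flt1, Gas6, Pdgfra, Pdgfc, Btc, Nrg1 and Angpt1) held in all 4 cases. As the authors scaled the arrays, which raised the median change of all genes from -0.01 to 0.18, 10 members rose and 7 fell, while 19.7% of all genes rose and 9.41% fell.

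**Figure D1:**
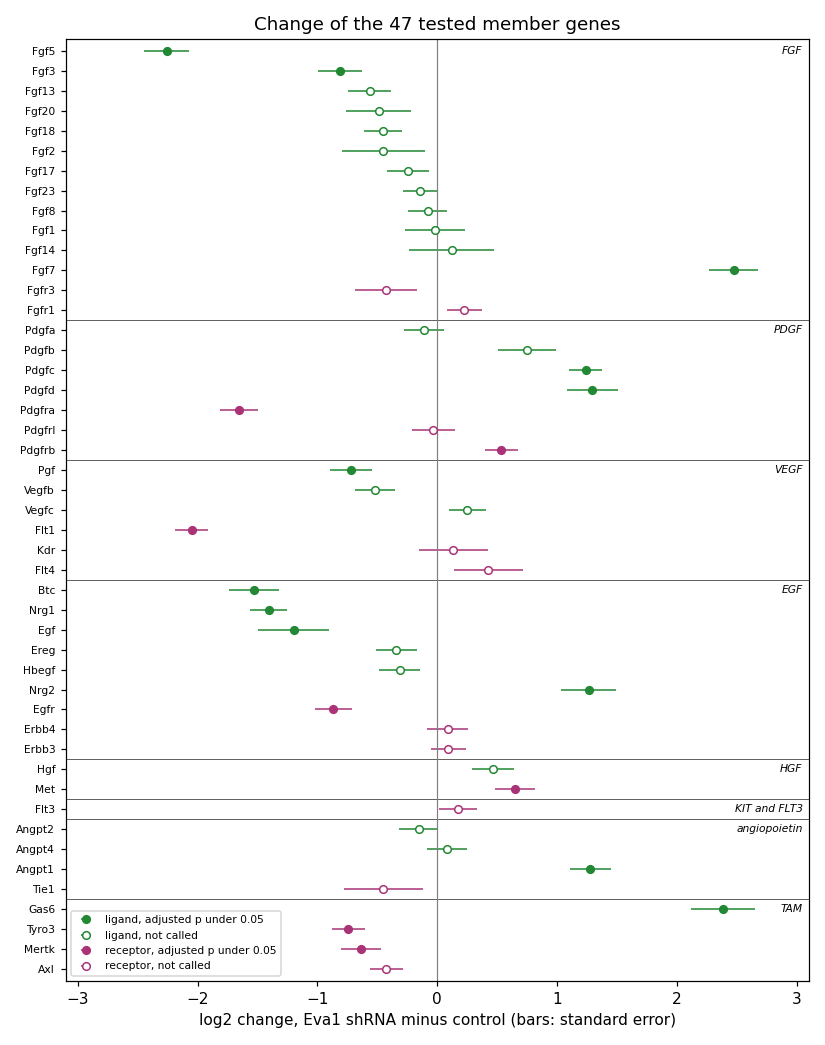
The plot shows the log2 change of each of the 47 tested genes (horizontal axis, Eva1 shRNA minus control) with its standard error as a bar, grouped by family; green marks ligands, purple marks receptors, and filled marks passed limma's test. Fgf7 and Gas6 lie farthest to the right, at 2.47 and 2.39, and Fgf5 and Flt1 farthest to the left, at -2.26 and -2.05.

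**Figure D2:**
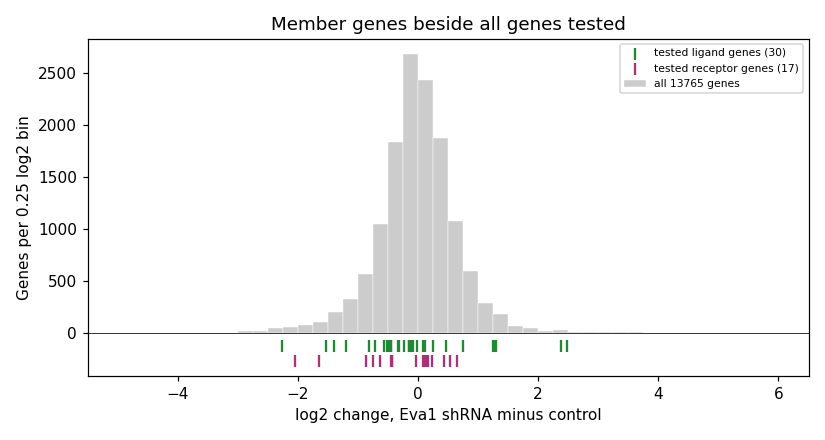
Grey bars count all 13765 genes by log2 change in bins of 0.25, and the ticks under the axis mark the tested ligand genes (30, green) and receptor genes (17, purple). Most ticks lie under the centre of the grey distribution, and 12 called members lie 1 or more log2 units from 0.

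RefSeq promoter windows (assembly GRCm38.p6) were found for 49 of the 66 genes, 15 of them among the 19 that changed. The 250 bases before the annotated start are printed for 5 of these, Fgf5 and Flt1, which fell, and Fgf7, Pdgfc and Met, which rose, the first 3 named here as the largest changes over the dim range and the other 2 as rises whose windows hold a searched motif. Capitals mark matches on either strand to the hypoxia response core ACGTG, the AP-1 site TGANTCA or the NF-κB consensus site. The windows are Fgf5 at chr5:98253934-98254183 (+ strand), Flt1 at chr5:147726012-147726261 (- strand), Fgf7 at chr2:126034408-126034657 (+ strand), Pdgfc at chr3:81036166-81036415 (+ strand) and Met at chr6:17463707-17463956 (+ strand), each read 5′ to 3′ on the strand of the gene.
Fgf5: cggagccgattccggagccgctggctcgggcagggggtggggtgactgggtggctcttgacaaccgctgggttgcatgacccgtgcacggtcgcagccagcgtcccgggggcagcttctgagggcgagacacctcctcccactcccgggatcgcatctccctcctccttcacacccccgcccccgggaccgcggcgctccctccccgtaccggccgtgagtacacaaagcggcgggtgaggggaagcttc
Flt1: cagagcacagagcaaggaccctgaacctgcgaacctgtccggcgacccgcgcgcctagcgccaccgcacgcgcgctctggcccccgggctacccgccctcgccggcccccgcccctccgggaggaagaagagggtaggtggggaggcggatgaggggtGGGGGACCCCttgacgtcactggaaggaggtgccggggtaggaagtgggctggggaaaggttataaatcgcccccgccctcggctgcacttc
Fgf7: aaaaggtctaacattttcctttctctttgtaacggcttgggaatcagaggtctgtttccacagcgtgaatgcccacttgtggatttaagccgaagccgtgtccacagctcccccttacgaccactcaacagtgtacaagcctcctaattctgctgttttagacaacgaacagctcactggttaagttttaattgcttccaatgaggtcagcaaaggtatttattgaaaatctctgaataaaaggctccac
Pdgfc: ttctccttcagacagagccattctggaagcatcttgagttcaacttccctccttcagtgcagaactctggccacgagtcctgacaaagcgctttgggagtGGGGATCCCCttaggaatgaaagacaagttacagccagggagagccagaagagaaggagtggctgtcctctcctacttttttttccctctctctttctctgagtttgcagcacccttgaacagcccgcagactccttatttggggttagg
Met: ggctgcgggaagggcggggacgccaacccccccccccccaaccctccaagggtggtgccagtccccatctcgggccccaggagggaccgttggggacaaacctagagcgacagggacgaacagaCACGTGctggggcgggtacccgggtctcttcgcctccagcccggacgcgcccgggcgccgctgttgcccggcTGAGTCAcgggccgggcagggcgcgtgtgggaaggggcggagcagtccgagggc

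The Flt1 window, of a gene that fell, held an NF-κB consensus match 92 to 83 bases before the start, and the Pdgfc window, of a gene that rose, held one 150 to 141 bases before it. Of the windows of called members not printed, that of Tyro3, which fell, had an NF-κB match 232 to 223 bases before its start. In 1 of the 2 windows of Egf, which fell, a hypoxia response core lay 60 to 56 bases before the start. Members not called or not tested also held matches. These were NF-κB sites for Kdr and Fgf13, AP-1 sites for Fgf12 and Fgf13, and hypoxia cores for Fgf9, Fgf21, Fgfr4 and Nrg4. In the Met window the sequence is read as a hypoxia response core on both strands, the matches overlapping by all but 1 base at each end, and an AP-1 site lies 54 to 48 bases before the start. The Fgf5 and Fgf7 windows held none of the 3 motifs. Over all 32851 promoter windows of this length 16.6% held the hypoxia core, 6.75% the AP-1 site and 3.90% the NF-κB site; of the 61 windows of members, 6 (9.84%), 3 (4.92%) and 5 (8.20%) did. The 61 windows came from 49 genes, and their median GC content was 62.4%, against 52.4% over all windows. The motif matches are descriptions of letters in a window, and binding was not measured.

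With 1 probe chosen per gene, FGF ligands included the member with the largest rise and the member with the largest fall; the unused Pdgfrl probe described below rose by more. Fgf7 (keratinocyte growth factor, which acts on epithelial cells through a splice form of Fgfr2) read 64.2 and 50.8 units in control and 411 and 315 in Eva1 shRNA cells. Both Eva1 shRNA arrays were far above both control arrays. Fgf7 was 5.56-fold higher, or 2.47 ± 0.21 in log2 units (SE, limma, adjusted p = 0.00219), the rise of rank 87 among 13765 genes. Fgf5, a ligand known for ending the growth phase of hair, read 104 and 84.0 units in control and 25.03 and 20.1 in Eva1 shRNA cells. Both hairpin arrays were far below both controls. Fgf5 was 4.78-fold lower, a log2 change of -2.26 ± 0.19 (SE, limma, adjusted p = 0.00214), the fall of rank 126.

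The other FGF ligands gave no change of that size. Fgf3 read 2.48 and 3.41 units in control and 1.60 and 1.89 in Eva1 shRNA cells, all within the dim range. Its call as a fall (log2 change -0.81, limma adjusted p = 0.0306) was lost with control array 2 (adjusted p = 0.0904), Eva1 shRNA array 1 (0.16) or Eva1 shRNA array 2 (0.0838) left out, and with 16 intensity units added before log2, a step that damps changes of dim probes, its change was -0.11. Fgf13, an intracellular member of the family that binds sodium channels, read 42.9 and 57.5 units in control and 39.4 and 37.7 in Eva1 shRNA cells. The groups did not overlap, yet Fgf13 was not called (log2 change -0.56, adjusted p = 0.0704), although it passed with 16 units added (-0.41, adjusted p = 0.021). As the authors scaled the arrays its change was -0.37, without a call (limma adjusted p = 0.2).

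Fgf17, a patterning ligand of the midbrain, read 41.8 and 33.2 units in control and 38.1 and 34.4 in Eva1 shRNA cells, and its deposited values overlapped between the groups. After normalisation both control arrays were above both Eva1 shRNA arrays, with a log2 change of -0.24 that was not called. The log2 changes of the remaining tested ligands were -0.49 for Fgf20, -0.45 for Fgf18, -0.45 for Fgf2, -0.15 for Fgf23, -0.08 for Fgf8, -0.02 for Fgf1 and 0.12 for Fgf14. Limma called none of them, and Fgf18 alone was under 0.05 before adjustment. Without the dimmest 25% of probes Fgf18 passed (limma adjusted p = 0.0368), and with 16 units added it did not (0.211). Fgf2, the mitogen commonly added to neural stem cell medium, read 2.97 and 2.11 units in control and 2.82 and 1.39 in Eva1 shRNA cells, all within the dim range. Of 22 genes counted as FGF ligands, intracellular members such as Fgf13 included, 12 were tested, with 1 rise and 2 falls.

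Neither of the FGF receptors tested was called. Fgfr1, the main FGF receptor of neural progenitors, read 205 and 214 units in control and 299.6 and 252 in Eva1 shRNA cells. The hairpin arrays were both above the controls, but the log2 change of 0.23 was not called (limma 95% interval -0.14 to 0.60, adjusted p = 0.303). Fgfr3 read 3.08 and 2.33 in control and 2.73 and 1.78 in Eva1 shRNA cells, within the dim range, with a log2 change of -0.43 (adjusted p = 0.272). Fgfr2, whose splice form binds Fgf7, was blank on control array 1 and read 1.81, 2.70 and 2.46 on the other 3 arrays. Fgfr4 was blank on control array 1 and read 3.21, 1.79 and 2.27 on the others.

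The PDGF family held changes in opposite directions in its receptors. Pdgfra, which binds every PDGF dimer except that of PDGF-D, read 66.3 and 59.5 units in control and 24.997 and 21.0 in Eva1 shRNA cells, both hairpin arrays well below both controls. It was 3.15-fold lower, a log2 change of -1.66 ± 0.16 (SE, limma, adjusted p = 0.0029). Pdgfrb, the receptor of pericytes and other mesenchymal cells, read 50.4 and 51.5 units in control and 89.1 and 79.2 in Eva1 shRNA cells, both hairpin arrays above both controls. Its log2 change of 0.54 ± 0.14 passed (adjusted p = 0.0421), but the call was lost whichever array was left out, with adjusted p from 0.0977 to 0.202, and with median centring (0.0507).

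Of the 4 PDGF ligands, Pdgfc and Pdgfd rose and the others were not called. Pdgfc, a ligand activated by cleavage of its CUB domain, read 50.9 and 56.2 units in control and 148 and 139 in Eva1 shRNA cells. The groups were well separated, with Pdgfc 2.36-fold higher, a log2 change of 1.24 ± 0.14 (SE, limma, adjusted p = 0.0043). Pdgfd, the related ligand that acts through Pdgfrb, read 4.89 and 3.90 units in control and 14.2 and 10.9 in Eva1 shRNA cells. Pdgfd rose by 1.30 ± 0.22 (SE, adjusted p = 0.0123), but its control mean of 4.39 was in the dim range, the change was 0.41 with 16 units added, and the call was lost without Eva1 shRNA array 1 (adjusted p = 0.0722).

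Pdgfa, the ligand that drives oligodendrocyte precursor growth, read 289.8 and 239.6 units in control and 296 and 252 in Eva1 shRNA cells. Its groups overlapped, with a log2 change of -0.11 (95% interval -0.53 to 0.31). Pdgfb read 4.16 and 2.90 units in control and 6.74 and 6.74 in Eva1 shRNA cells, higher on both hairpin arrays, with a log2 change of 0.75 that was not called (adjusted p = 0.0778), except as the authors scaled the arrays (0.0261) and without control array 1 (0.0342). Pdgfrl, a receptor-like protein without a kinase domain, gave 2 answers: one probe read 12.7 and 14.6 in control and 18.4 and 13.2 in Eva1 shRNA cells, and the other read 3.18 and 4.21 in control and 26.97 and 25.4 in Eva1 shRNA cells. The first, with the higher mean log2 level and thus used for the gene, had a log2 change of -0.03. The second had 2.63 (limma over 19199 probes, adjusted p = 0.00184), so the change of Pdgfrl is not settled by this array.

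Markers of pericytes and fibroblasts were set beside Pdgfrb, Pdgfra and Pdgfrl, since those cells carry these receptors. Of 8 such markers 7 were tested; by limma 0 rose (1 at an unadjusted p under 0.05) and 1 (Rgs5, log2 change -2.53, lost in 2 of the 4 omissions) fell (2 at an unadjusted p under 0.05), Cspg4 was at or below 4.71 units or blank on all arrays, and Col3a1 read 610 and 726 in control and 1080.5 and 997 in Eva1 shRNA cells without a call (adjusted p = 0.0728). Dcn read 117 and 93.0 in control and 55.3 and 15.5 in Eva1 shRNA cells, lower on both hairpin arrays and also without a call (log2 change -2.02, adjusted p = 0.0532). Over the 7 markers the median change was -0.56. The summed intensity of the list was 781 and 875 in control and 1182 and 1047 in Eva1 shRNA cells, most of it Col3a1. Of 6 oligodendrocyte precursor markers 4 were tested and limma called 0, also at an unadjusted p under 0.05, and their summed intensity was 34.0 and 41.6 in control and 37.9 and 40.4 in Eva1 shRNA cells. The share of all genes at an unadjusted p under 0.05 was not counted. It is no less than the 26.0% called after adjustment. The part of other cell states in these receptor changes was not tested, and in bulk RNA fewer cells of a type and less RNA per cell cannot be told apart.

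**Figure D3:**
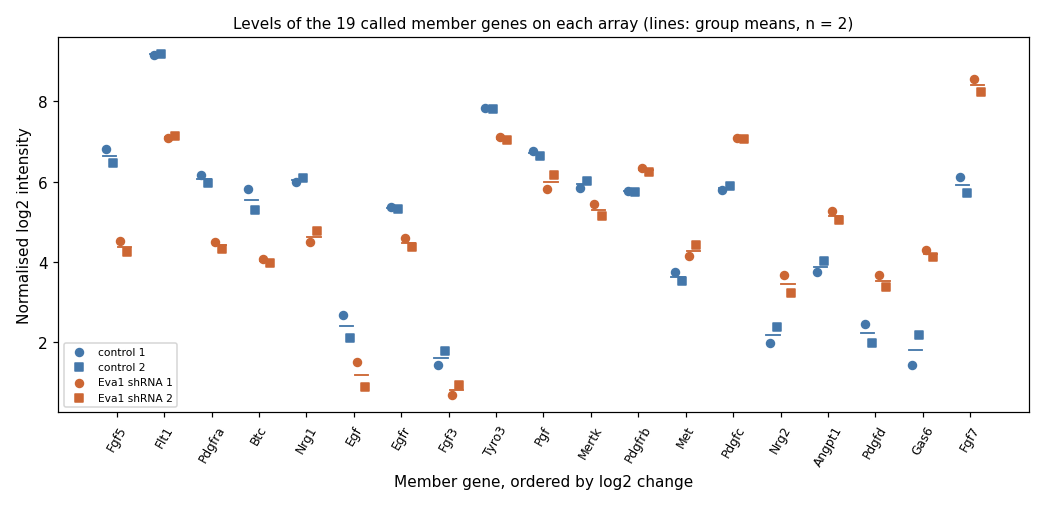
Points give the normalised log2 intensity (vertical axis) of the 19 called genes on each array, ordered by log2 change, with blue for control, orange for Eva1 shRNA, circles and squares for arrays 1 and 2, and short lines for group means (n = 2). For Flt1 the 4 values stand at 9.15 and 9.18 in control and 7.08 and 7.14 in Eva1 shRNA cells, and for Gas6 the control values of 1.44 and 2.19 are apart from each other.

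In the VEGF family the receptor Flt1 and its ligand Pgf fell. Flt1, a high-affinity VEGF receptor with weak kinase activity that often acts as a ligand trap, read 542 and 546 units in control and 148 and 147 in Eva1 shRNA cells. The arrays of a group were nearly equal and the groups far apart. Flt1 was 4.14-fold lower, a log2 change of -2.05 ± 0.14 (SE, limma, adjusted p = 0.00124), and -1.93 with 16 units added. Kdr, the main signalling receptor for VEGF-A, read 15.0 and 9.36 in control and 13.8 and 16.8 in Eva1 shRNA cells and overlapped (log2 change 0.14, 95% interval -0.59 to 0.87). Flt4, the lymphatic receptor, read 2.98 and 5.37 in control and 7.34 and 5.23 in Eva1 shRNA cells, also overlapping (log2 change 0.42, adjusted p = 0.325).

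Pgf (placental growth factor, which binds FLT1 and not KDR) read 101 and 93.8 units in control and 61.0 and 74.6 in Eva1 shRNA cells, lower on both hairpin arrays. Its log2 change of -0.72 ± 0.18 passed (adjusted p = 0.0363) but was lost whichever array was left out (0.0645 to 0.166) and as the authors scaled the arrays (0.0656). Vegfb, the other ligand specific to FLT1, read 1039.6 and 814 in control and 733 and 689 in Eva1 shRNA cells, without overlap. Vegfb was not called (log2 change -0.52, adjusted p = 0.0726) but passed with 16 units added (-0.51, adjusted p = 0.00907). As the authors scaled the arrays its change was -0.37, without a call (limma adjusted p = 0.167). Vegfc, the lymphatic growth factor that binds FLT4, read 88.9 and 90.1 in control and 115 and 129.8 in Eva1 shRNA cells, higher on both hairpin arrays by a log2 change of 0.25 that was not called (95% interval -0.13 to 0.63).

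EGF family ligands moved in both directions. Btc (betacellulin, a ligand of EGFR and ERBB4) read 52.0 and 37.2 units in control and 18.6 and 16.5 in Eva1 shRNA cells, both hairpin arrays below both controls. It was 2.88-fold lower, a log2 change of -1.53 ± 0.21 (SE, limma, adjusted p = 0.00731), or -0.97 with 16 units added. Nrg1 (neuregulin 1, a ligand of ERBB3 and ERBB4) read 58.9 and 63.9 in control and 25.004 and 28.2 in Eva1 shRNA cells, again fully separated. Nrg1 was 2.65-fold lower, a log2 change of -1.41 ± 0.16 (SE, adjusted p = 0.0043).

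Nrg2, a relative of Nrg1, moved the other way, from 3.54 and 5.07 units in control to 14.4 and 9.88 in Eva1 shRNA cells. Nrg2 rose by 1.27 ± 0.23 (SE, adjusted p = 0.0159), with a control mean in the dim range, a change of 0.39 with 16 units added, and a call lost without control array 1 (0.0707) or Eva1 shRNA array 1 (0.0769). Egf itself read 5.77 and 4.18 in control and 3.12 and 1.83 in Eva1 shRNA cells, lower on both hairpin arrays and close to the signal limit. Its log2 change of -1.20 passed (adjusted p = 0.0375), but the call was lost whichever array was left out (0.0515 to 0.146), as the authors scaled the arrays (0.0575) and with 16 units added, where the change was -0.22.

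Hbegf and Ereg, ligands shed from the cell surface and induced by Ras signalling in many cells, had clear signal and no call. Hbegf read 519 and 602 units in control and 468 and 542 in Eva1 shRNA cells, and its deposited values overlapped (log2 change -0.31, limma 95% interval -0.75 to 0.12). Ereg read 250.02 and 309.6 in control and 241 and 254 in Eva1 shRNA cells, also overlapping as deposited (log2 change -0.34, 95% interval -0.77 to 0.09). After normalisation neither Hbegf nor Ereg overlapped, with both control arrays above both Eva1 shRNA arrays.

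Of the EGF family receptors Egfr fell. Egfr, a receptor often amplified in glioma, read 37.7 and 38.4 units in control and 26.6 and 21.6 in Eva1 shRNA cells, both hairpin arrays below both controls. It was 1.82-fold lower, a log2 change of -0.87 ± 0.15 (SE, limma, adjusted p = 0.0144), or -0.56 with 16 units added, and the call was lost whichever array was left out (0.0513 to 0.0835). Erbb3, the kinase-poor neuregulin receptor, read 11.6 and 12.5 in control and 14.8 and 15.4 in Eva1 shRNA cells, and Erbb4 read 15.7 and 14.4 in control and 17.5 and 19.7 in Eva1 shRNA cells. After normalisation their log2 changes were 0.09 (95% interval -0.26 to 0.45) and 0.09 (-0.34 to 0.51), and neither was called.

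In the TAM family the ligand rose while 2 of 3 receptors fell. Gas6, a vitamin K-dependent ligand, read 2.47 and 4.45 units in control and 21.5 and 18.2 in Eva1 shRNA cells, far above the controls on both hairpin arrays. The log2 change was 2.39 ± 0.27 (SE, limma, adjusted p = 0.00445). Its control values were in the dim range, so the size is not settled, and with 16 units added it was 0.81 (adjusted p = 2.992e-04). Pros1, the gene of the alternative ligand protein S, read 86.0 and 112 in control and 40.3 and 46.0 in Eva1 shRNA cells and fell (log2 change -1.39, adjusted p = 0.00716).

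Tyro3, the TAM receptor most prominent in neural cells, read 213 and 211.1 units in control and 149.9 and 137 in Eva1 shRNA cells, clearly lower on both hairpin arrays. Its log2 change was -0.74 ± 0.14 (SE, adjusted p = 0.0167), and the call was lost whichever array was left out (0.0537 to 0.0949). Mertk, the receptor used by phagocytes and astrocytes to engulf debris, read 53.2 and 61.1 in control and 47.7 and 37.2 in Eva1 shRNA cells. Its log2 change of -0.64 ± 0.17 passed (adjusted p = 0.0465), was lost whichever array was left out (0.0891 to 0.203) and was -0.44 as the authors scaled the arrays (0.135). Axl, linked to invasion in glioma, read 392 and 372 in control and 338 and 306 in Eva1 shRNA cells, without overlap. Axl was not called (log2 change -0.43, adjusted p = 0.0757) but passed with 16 units added (-0.41, adjusted p = 0.0083). As the authors scaled the arrays its change was -0.25, without a call (limma adjusted p = 0.248). Of 8 markers of microglia and blood cells, which also carry TAM receptors, 3 (Itgam, P2ry12 and Ptprc) were at or below 4.71 units or blank on all arrays and 1 of 6 tested (Cd68) fell; their summed intensity was 268 and 237 in control and 194 and 193 in Eva1 shRNA cells. Cd68 went lower by more than that difference, at 181 and 148 in control and 77.3 and 89.3 in Eva1 shRNA cells, and lost its call in 2 of the 4 omissions. Csf1r read 34.0 and 38.0 in control and 53.0 and 44.5 in Eva1 shRNA cells, higher on both hairpin arrays without a call. The part of such cells in these changes was not tested.

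Angpt1, an agonist of the receptor TEK that steadies vessels, was the angiopoietin that rose. Angpt1 read 11.9 and 15.4 units in control and 42.1 and 34.5 in Eva1 shRNA cells, well separated. It was 2.42-fold higher, a log2 change of 1.28 ± 0.17 (SE, limma, adjusted p = 0.00677), or 0.75 with 16 units added. Angpt2, the context-dependent antagonist, read 122 and 118 in control and 112 and 135 in Eva1 shRNA cells, and its groups overlapped (log2 change -0.16, 95% interval -0.57 to 0.26). Angpt4 read 13.2 and 11.4 in control and 16.1 and 14.3 in Eva1 shRNA cells, with a log2 change of 0.08. Of the angiopoietin receptors Tie1 read between 1.89 and 4.17 on the 4 arrays and overlapped, and Tek was blank on Eva1 shRNA array 1 and read 2.12, 3.91 and 3.11 on the others, all within the dim range.

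Met, the receptor of hepatocyte growth factor, rose and its ligand was not called. Met read 11.96 and 10.97 units in control and 19.7 and 22.3 in Eva1 shRNA cells, higher on both hairpin arrays. Its log2 change of 0.65 ± 0.17 passed (adjusted p = 0.0425), was 0.32 with 16 units added, and was lost whichever array was left out (0.0809 to 0.19). Hgf read 11.95 and 9.999 in control and 18.8 and 16.5 in Eva1 shRNA cells, also without overlap, with a log2 change of 0.47 (adjusted p = 0.107). Flt3, a receptor of blood progenitors, read 12.1 and 10.9 in control and 15.0 and 15.4 in Eva1 shRNA cells, and its change after normalisation was 0.17 (95% interval -0.23 to 0.57).

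The 19 genes with a blank cell were 12 of the FGF family (Fgf4, Fgf6, Fgf9, Fgf10, Fgf11, Fgf12, Fgf15, Fgf16, Fgf21, Fgf22, Fgfr2 and Fgfr4), Tgfa, Nrg3, Nrg4 and Erbb2 of the EGF family, Kit, Kitl and Tek. Their filled cells reached 12.5 units at most. Fgf6, Fgf10 and Kitl were blank on both control arrays; Fgf6 then read 2.27 and 2.35 and Fgf10 1.90 and 2.67 in Eva1 shRNA cells, while Kitl read 1.51 on Eva1 shRNA array 1. Nrg3, a neuregulin of the nervous system, was blank on both Eva1 shRNA arrays and read 1.97 on control array 2. No fold is given against blank cells. Kit, the receptor of stem cell factor, read 3.07 on control array 1, was blank on control array 2, and read 2.03 and 12.5 in Eva1 shRNA cells, so its highest value rests on 1 array. Tgfa was blank on control array 1 and read between 1.52 and 1.84 elsewhere, and Erbb2 was blank on control array 2 and read between 1.87 and 2.67.

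**Figure D4:**
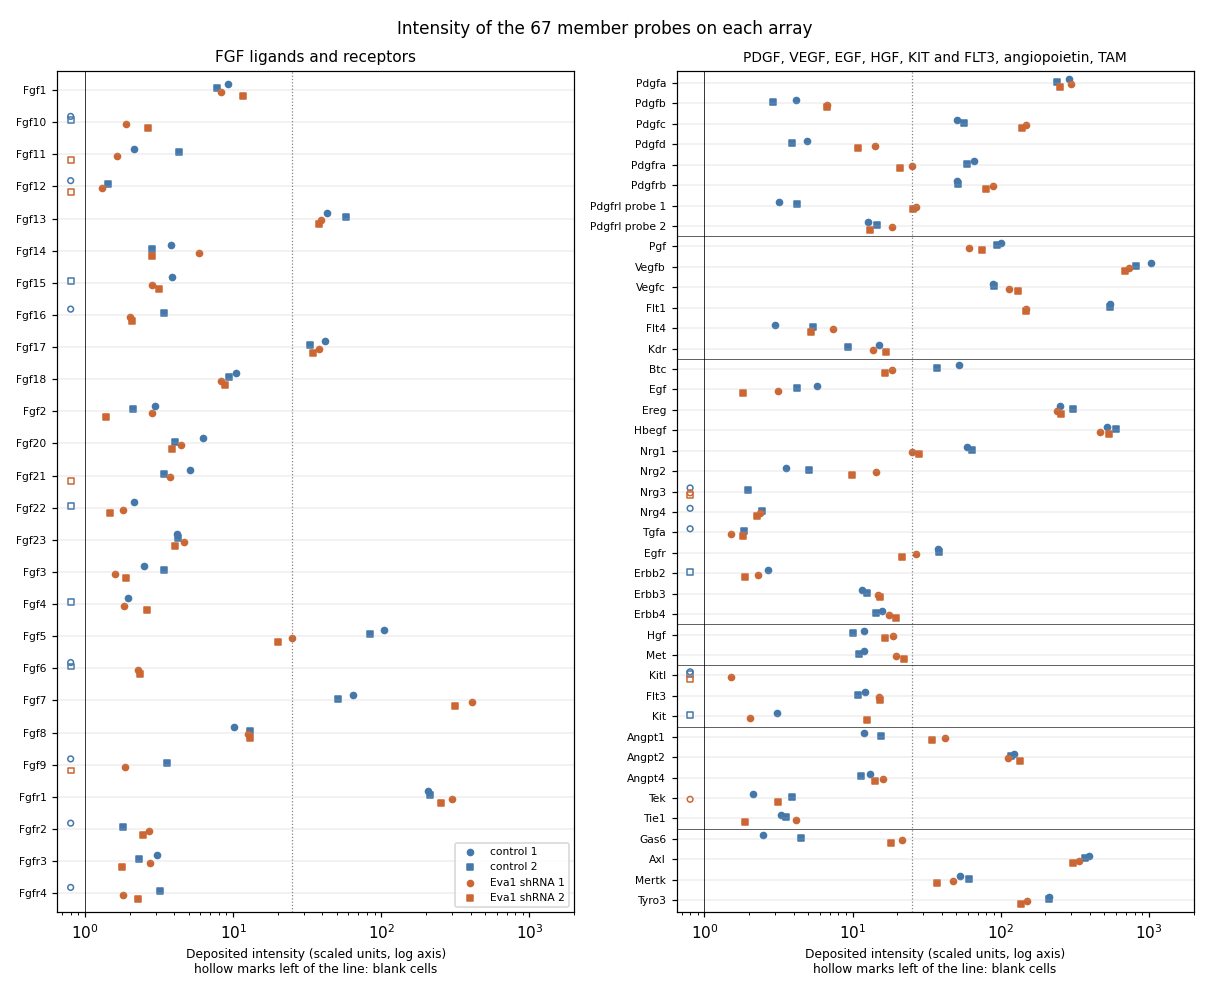
Points give the deposited intensity (horizontal log axis) of all 67 member probes on each array, with FGF genes on the left and the other families on the right; blue is control, orange is Eva1 shRNA, circles and squares are arrays 1 and 2, hollow marks left of the solid line are blank cells, and the dotted line is the array median of 25. Between 20 and 22 member probes per array were above that median, and the blank cells lie mostly among FGF ligands.

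Intensity bears on which sizes can be read. Of the 47 tested genes 34 had probes with both group means over the dim range, and of these 5 rose and 9 fell. The other 13 had a group mean within it, and 3 of these (Gas6, Pdgfd and Nrg2) rose and 2 (Egf and Fgf3) fell. All genes were not counted by the same split, so these counts have no share over all genes beside them. With 16 intensity units added, 8 members rose and 12 fell, where 17.8% of all genes rose and 17.9% fell on that scale. The change was over 1.5 times smaller for 9 of the 19 called genes, namely these 5 and Angpt1, Btc, Egfr and Met.

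**Figure D5:**
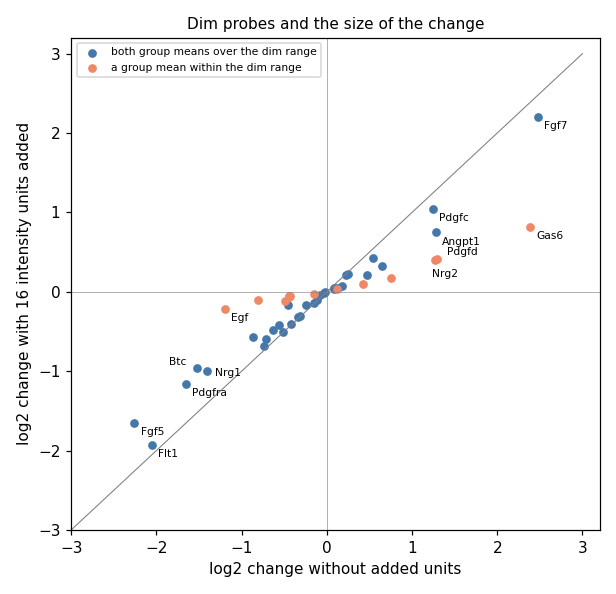
Each point is a tested gene, with its log2 change as reported on the horizontal axis and with 16 intensity units added on the vertical axis; orange points have a group mean in the dim range, the line marks equal values, and genes that changed by at least 1 log2 unit are named. Fgf7 and Flt1 lie near the line, at 2.20 and -1.93 on the vertical axis, while Gas6 drops to 0.81 and Egf to -0.22.

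Genes that act beside these receptors were read from lists of adaptors, feedback regulators, co-receptors, sheddases and other receptor tyrosine kinases. The counts below stand beside the 12.5% of all genes that rose and the 13.5% that fell, and beside 541 to 1145 rises and 730 to 1156 falls over all genes with an array left out, against 1720 and 1856 with all 4. Among 24 tested genes of receptor restraint and feedback, 2 rose and 6 fell, with a median change of -0.37. Dusp6, the ERK phosphatase, read 768 and 794 units in control and 395 and 394 in Eva1 shRNA cells (log2 change -1.15, adjusted p = 0.0052). Il17rd, an FGF signalling antagonist, had -1.67 and Spry4, a Sprouty inhibitor of Ras activation, had -1.31. These 3 falls held whichever array was left out. Spred1 (-0.59), Spred2 (-1.07) and Spred3 (-0.83) also fell, but Spred1 and Spred3 lost the call in all 4 omissions and Spred2 in 2 of them, with adjusted p up to 0.203 for Spred1 without Eva1 shRNA array 1, 0.0703 for Spred2 without Eva1 shRNA array 2 and 0.0924 for Spred3 without Eva1 shRNA array 1. Spred2 read 5.88 and 5.45 in control and 3.55 and 2.62 in Eva1 shRNA cells, the latter in the dim range, and its change was -0.23 with 16 units added. The 2 rises were Spry1, another Sprouty gene, at 1.48 and Lrig3 at 1.27. With 1 array left out 2 rose in each case and 3 or 4 fell, the fewest without Eva1 shRNA array 2.

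Co-receptors and ligand-binding partners moved in both directions, 5 rises and 6 falls among 21 tested, with a median change of -0.12. Nrp1 (neuropilin 1, a co-receptor of VEGF and semaphorins) read 15.0 and 16.4 units in control and 110 and 97.9 in Eva1 shRNA cells, a log2 change of 2.52 (adjusted p = 0.00105). Fgfbp1, a carrier that frees FGFs from the matrix, read 18.8 and 15.2 in control and 80.8 and 94.96 in Eva1 shRNA cells (log2 change 2.17, adjusted p = 0.0027), while the related Fgfbp3 fell (-1.21). The heparan sulphate core proteins split, with Gpc6 at 2.27 and Gpc2 at 0.75 among the rises and Sdc1 at -2.45 and Sdc3 at -1.08 among the falls. Gpc6 read 3.00 and 3.34 in control, in the dim range, and with 16 units added the changes were 0.73 for Gpc6, 0.38 for Gpc2 and -0.46 for Sdc3. The fifth rise was Sulf2, a heparan sulphatase, which lost its call in 3 of the 4 omissions (adjusted p up to 0.126). The other falls were Pros1, which held in all 4, and Cd44 and Fgfrl1, which lost their calls in all 4 (up to 0.12 and 0.155) and as the authors scaled the arrays (0.061 and 0.0769). Sdc1 differed between the Eva1 shRNA arrays (39.0 and 12.6 units) and lost its call in 2 of the 4 omissions (adjusted p up to 0.0956, without control array 1), Sdc3 without Eva1 shRNA array 1 (0.0508) and Gpc2 whichever array was left out (up to 0.101). With control array 1, control array 2, Eva1 shRNA array 1 or Eva1 shRNA array 2 left out, 3, 5, 3 and 3 of the list rose and 3, 3, 3 and 4 fell.

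Among 16 tested sheddases and activators that release or process ligands, by limma 0 rose (2 at an unadjusted p under 0.05) and 6 fell (Adam9, Adam15, Rhbdf2, Bace1, Plau and Spint1), with a median change of -0.29. For the unadjusted count the share over all genes was not counted. Spint1 is an inhibitor of the proteases that activate hepatocyte growth factor, and Plau is the urokinase gene. Adam15 read 1037 and 1040.0 units in control and 686 and 625 in Eva1 shRNA cells. Rhbdf2, which carries the EGF ligand sheddase ADAM17 to the surface, had a log2 change of -0.98 (adjusted p = 0.00892), and Adam17 itself was not called. Plau (-2.88) kept its call in all 4 omissions of an array and Rhbdf2 in 3. Adam15 and Spint1 kept theirs in 2, Adam9 in 1 and Bace1 in 0. Plau read 4.11 and 3.42 in Eva1 shRNA cells, in the dim range, and its change was -1.11 with 16 units added. The falls numbered 4, 4, 1 and 3 with the arrays left out in the same order. Among 24 other receptor tyrosine kinases 5 rose (Epha4, Ddr2, Styk1, Epha7 and Ryk) and 1 (Aatk) fell, with a median of 0.10. Epha4 and Styk1 had controls in the dim range, and with 16 units added their changes were 0.31 and 0.47. Ddr2, Styk1 and Aatk held in all 4 omissions, and with an array left out in that order 5, 4, 2 and 3 rose and 1 fell each time. Among 22 adaptors and docking proteins 1 (Plcg2) rose and 3 (Grb14, Pik3r2 and Frs3) fell, and Grb14, an inhibitory adaptor, was the one of these 4 to hold whichever array was left out (-1.15, adjusted p = 0.00517).

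Among 14 tested genes of other angiogenic and growth factors 2 rose (Ccn1 and Ccn2) and 3 fell (Adm, Vegfa and Apln), with a median change of -0.05. Vegfa, the ligand of both FLT1 and KDR, read 95.7 and 97.2 units in control and 45.7 and 60.4 in Eva1 shRNA cells, lower on both hairpin arrays (log2 change -1.06, limma adjusted p = 0.0176), and lost its call in 3 of the 4 omissions (adjusted p up to 0.0758). Adm (adrenomedullin) had -1.26 and Apln (apelin) -0.90, both secreted peptides that act on vessels. Adm kept its call in 3 of the 4 omissions and Apln in 2. With 16 intensity units added the changes were -1.20 for Adm and -0.25 for Apln. That step took Ccn1 from 1.06 to 0.98 and Ccn2 from 1.32 to 0.50. Ccn1 kept its call in all 4 omissions and Ccn2 in 3 of them (adjusted p 0.0669 without Eva1 shRNA array 2). The falls of the list numbered 2 without either control array and 1 without either Eva1 shRNA array.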

How the data were processed

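Total RNA of NSCL61 cells, 2 control and 2 Eva1 shRNA samples, was labelled with Cy5 and hybridised to TORAY 3D-Gene mouse 24K chips, per the labels. The authors deposited 1 table of intensity values on a linear scale, with every array at a median of about 25 units; how they subtracted background or left cells blank is not given in the sources used here. Precision is limited by the number of arrays.

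Groups follow the sample titles. The 19199 probes filled on all 4 arrays were taken to log2 and quantile normalised, a gene was represented by its probe with the highest mean, and 13765 genes were tested with limma 3.58.1 (lmFit and eBayes) in R 4.3.3, with Benjamini-Hochberg adjustment over all of them and a threshold of 0.05. The code was tested on simulated data. Symbols came from the platform annotation (16631 probes with 1 symbol, 0 with several, 6842 with none) and were updated through RefSeq for 3947 probes. 59 were ambiguous and 3 unmatched, and these kept the name of the annotation. Promoters are from RefSeq GRCm38.p6. Figures used Python 3.11.15 and matplotlib 3.10.9.

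Members and gene lists were chosen with earlier results of these data known. By the naming rule any member may be named; values by array were due for called members with a log2 change of at least 1 in size, for the 12 with the highest mean and for those blank in a whole group, and from each list the called genes. Values by array of further members and of uncalled list genes (Col3a1, Dcn, Csf1r), and the naming of Adam17, were added after their values were seen. The values by array of Nes, also uncalled, fall outside this rule too. Alternatives covered scaling, dim probes, added units, blank cells, the replicate number as a block, the variance model, the probes of a gene, a minimum fold and leaving out each array. Deviations of same-numbered arrays from their group means correlated at -0.0093, so the numbers were not taken as pairs.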

Additional observations from a re-analysis of the deposited data

How the results depend on the processing

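The 19 called members kept their direction under every alternative in which they were tested, and 8 also kept the call in all of these (Fgf5, Fgf7, Flt1, Gas6, Pdgfra, Pdgfc, Btc and Nrg1); the filter on the dimmest 25% of probes left Gas6 untested. As the authors scaled the arrays 10 members rose and 7 fell, and over all genes 2714 rose and 1295 fell. With blank cells filled with the lowest value of the array, 6 of 66 members rose and 7 fell. Of the 16390 genes tested that way 1204 rose and 1312 fell. Against a minimum change of 1.5-fold (limma treat) 3 members rose and 5 fell, and 369 genes rose and 480 fell over all. With 1 array left out, which leaves a lone array assumed to vary like the other group, rises numbered 4 to 6 among members and 541 to 1145 over all genes, and falls 5 to 6 and 730 to 1156. With the replicate number as a block 6 members rose and 9 fell, Mertk, Met, Pdgfrb and Pgf losing their calls; over all genes 1471 rose and 1631 fell.

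Only genes without a call changed sign. As the authors scaled the arrays, Angpt2 was at 0.041, Fgf1 at 0.21, Fgf23 at 0.051, Fgf8 at 0.16, Pdgfa at 0.052 and Pdgfrl at 0.19 log2 units, and with the mean of its probes Pdgfrl was at 1.30. With an array left out, Fgf1 ranged from -0.31 to 0.28, Fgf8 from -0.21 to 0.048, Fgf14 from -0.35 to 0.59, Pdgfa from -0.26 to 0.037, Pdgfrl from -0.23 to 0.16, Kdr from -0.24 to 0.51, Erbb4 from -0.040 to 0.22, Angpt2 from -0.31 to 0.0031, Angpt4 from -0.074 to 0.23 and Tie1 from -0.92 to 0.048. The causes were not tested. Signal over background limits the 5 called genes with a dim group.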
